A study of Mus musculus with 36 samples.

Results

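Fibroblasts were compared between hearts whose left anterior descending artery was tied permanently and hearts in which the tie was temporary, both sampled at day 3. A well counted as a fibroblast when it held at least 1000 unique molecular identifiers (UMIs, tags that count single mRNA molecules) from nuclear genes and at least 2% of these came from Col1a1, Col1a2, Col3a1, Dcn and Lum. In addition, fewer than 5% came from 8 cardiomyocyte genes (Myh6, Actc1, Tnnt2, Tnni3, Tnnc1, Myl2, Myl3, Mb) and fewer than 1% from 8 macrophage genes (Lyz2, Ctss, C1qa, C1qb, C1qc, Cd68, Csf1r, Mrc1). These rules gave 185 fibroblast wells on 9 plates, out of 3146 wells of at least 1000 UMIs in the whole series and 1329 in both day 3 groups. Permanent ligation (MI) gave 124 wells on 5 plates, and temporary ligation (IR, released after 1 hour) gave 61 wells on 4 plates of at least 5 such wells. IR plates 1 and 6 held 1 and 2 fibroblast wells and did not enter the comparison of genes, and IR plate 2 held no well of 1000 UMIs.

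The mice were male animals aged 8 weeks, of the strain C57BL/6 in the labels and C57BL/6 J in the study's methods. Cells came from the infarcted left ventricle, dissociated with enzyme and sorted singly into the wells of plates. No allele or drug was added, and no sham group of day 3 is in the files used here. The study used 3 mice per MI condition, so some of the 5 MI plates share a mouse, which plates share one is not given, and p-values over plates may be too small. The MI plates were labelled and deposited as a set of their own, so the library set and the type of ligation cannot be told apart.

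Cardiac fibroblasts are the cells that lay down and maintain the collagen network of the heart. After infarction, resting fibroblasts near the lesion divide, take up contractile proteins such as alpha smooth muscle actin (Acta2) and secrete matrix that becomes the scar. Periostin (Postn) and Cthrc1 are matrix proteins of activated fibroblasts, whereas Pi16, Scara5, Clec3b and Gsn mark resting ones.

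The plates differed in depth and content along with the groups. Fibroblast wells had a median of 21058 to 44379 UMIs per MI plate and of 1763 to 5919.5 per IR plate, and the summed wells held 715222 to 1279277 UMIs per MI plate and 40230 to 209736 per IR plate. The median mitochondrial share of these wells was 6.90% to 15.4% on MI plates and 13.4% to 60.0% on IR plates. The 16 cardiomyocyte markers summed to 0.0919% to 0.128% of UMIs on MI plates and 0.263% to 2.20% on IR plates, highest on IR plates 4 and 7, and none of the 16 was at 0 in either group. The 15 macrophage markers summed to at most 0.0654% on MI and 0.0720% on IR plates, the 9 endothelial markers to at most 0.0115% and 0.0857%, and the markers of neutrophils, mural, epicardial, Schwann, T or NK, B and red blood cells to at most 0.0296% and 0.0758%. Among the defining markers, Cd3e, Cd3g, Nkg7, Cd79b and Ms4a1 were at 0 in both groups. Their part in the results below was not tested.

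**Figure D1:**
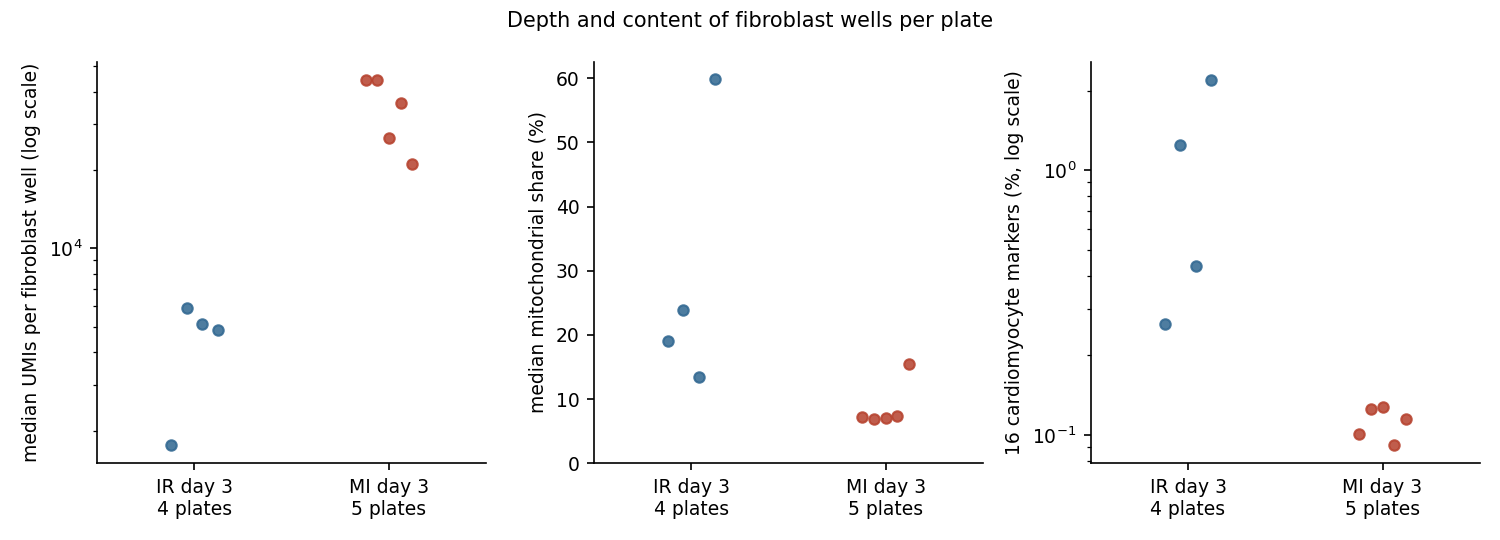
Median UMIs per fibroblast well (left, log scale), median mitochondrial share in percent (middle) and summed share of 16 cardiomyocyte markers in percent (right, log scale), 1 point per plate, for 4 IR and 5 MI plates at day 3. All 5 MI plates lie above the IR plates in depth and below them in cardiomyocyte markers.

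The genes that chose the wells were measured on every plate and are given as a description. Col1a1, a chain of type I collagen, had 11184, 11531, 10317, 10914 and 10364 CPM (counts per 1000000 UMIs of the summed wells) on MI plates 1 to 5, and 12979.8, 20998, 19289 and 16366 CPM on IR plates 3, 4, 5 and 7. Dcn, the proteoglycan decorin, had 2357, 3104, 1770.2, 3312 and 2352 CPM in MI and 13269.7, 6465, 4947 and 4437 CPM in IR. Both labelled markers were present on all plates, at lower levels on all MI plates than on any IR plate. Many MI wells lay close to the 2% limit: of the MI wells that met the other limits, 105 had 1% to 2% of UMIs from the 5 genes, 75 had 2% to 4% and 49 had 4% or more, and the numbers in IR were 9, 12 and 49. The nearest MI wells had 2.01% inside and 1.97% outside the limit, and in IR 2.24% and 2.00%. In wells with at least 1% macrophage genes, the same 5 genes made up a median of 0.0971% of UMIs in MI and 0.0666% in IR.

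The share of fibroblasts among all wells of at least 1000 UMIs, on plates of at least 20 such wells, addressed whether their frequency differed. IR plate 1, with 1 fibroblast among 11 wells (9.09%), did not enter. It was 18.1%, 16.4%, 16.9%, 14.3% and 21.3% on MI plates 1 to 5 and 42.6%, 6.06%, 14.7%, 4.65% and 8.42% on IR plates 3 to 7. The MI plates lay close together and within the range of the IR plates, and IR plate 3 stood far above the other IR plates. The 95% Wilson intervals, which cover counting error only, ran from 9.44% to 29.9% over MI plates, and for IR plate 3 from 30.3% to 55.8%. The mean share was 17.4% ± 2.58 on MI plates (SD, n = 5) and 15.3% ± 15.7 on IR plates (n = 5), a difference of 2.12 percentage points (two-sided exact permutation test, p = 0.865, smallest possible p 0.00794). The direction turned without IR plate 4 (-0.189) or IR plate 6 (-0.542), and without IR plate 3 the difference was 8.94 points with exact permutation p = 0.0317.

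Of 8098 genes tested, 261 were higher and 279 lower in MI (edgeR quasi-likelihood test, Benjamini-Hochberg adjusted p under 0.05), which is 3.22% and 3.45% of the genes tested and 6.67% in both directions. Over all these genes the median log2 fold change stood at 0.10. The groups of plates did not overlap for 742 genes in the higher direction (9.16%) and 291 in the lower (3.59%). Metallothionein and glycolysis genes, Timp1 and the actin gene Actb were among the higher genes, and Postn, resting fibroblast genes, elastic fibre genes and MHC class I genes among the lower ones. The number of genes past the threshold was 303 without IR plate 4, 265 without IR plate 7, 321 without MI plate 3, 865 without IR plate 5 and 76 (34 higher, 42 lower) without both IR plates 4 and 7. When wells were weighted equally within a plate, which also replaced the edgeR test by limma-trend on log2(CPM + 10), 483 genes were higher and 140 lower. That is 77.5% higher against 48.3% above. Equal well weights below mean both changes, which were not separated. Of 93 called genes picked for naming, 28 lost their call without IR plate 4 and 33 without IR plate 7, and 62 of the 91 that gave a value lost it without both. Only IR plates 3 and 5 were then left in IR, and of all called genes that gave a value 522 of 534 kept their sign.

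**Figure D2:**
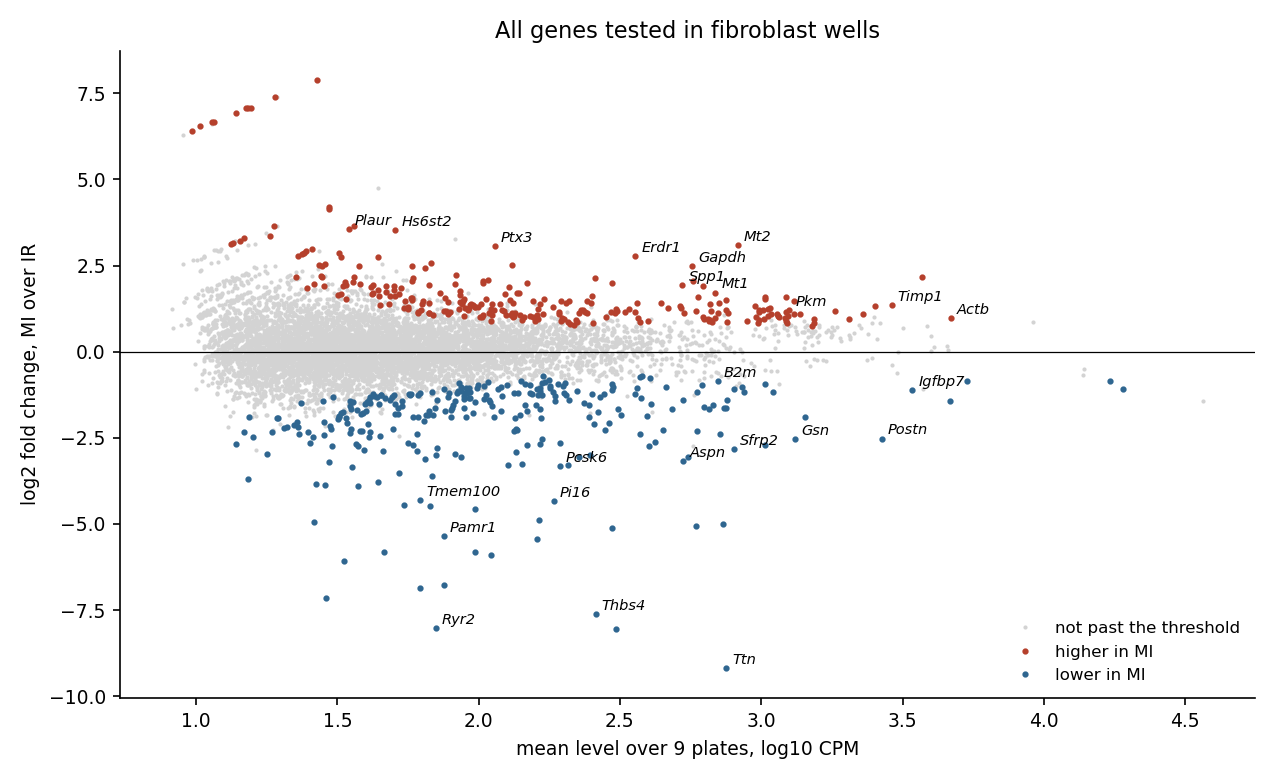
Log2 fold change of MI over IR (vertical axis) against the mean level over 9 plates in log10 CPM (horizontal axis) for 8098 genes, with 261 genes higher in MI in red and 279 lower in blue. Ttn, with a log2 fold change of -9.19, lies lowest, and Mt2 and Postn stand out among abundant genes.

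Periostin, an abundant matrix protein, was lower in MI. Postn (GRCm38.p6 chromosome 3, 54359267 to 54391041) had 1185, 758, 805, 633 and 1100.1 CPM on MI plates 1 to 5 and 3969.8, 5984, 2709 and 6898 CPM on IR plates 3, 4, 5 and 7. The highest MI plate stayed below the lowest IR plate. The mean was 896 CPM ± 235 in MI (SD over 5 plates) and 4890.2 CPM ± 1900.0 in IR (4 plates), 5.46-fold higher in IR (log2 -2.52 ± 0.32 SE, edgeR adjusted p = 0.000104), and the call held in all 26 alternatives that gave a value. Thbs4, a thrombospondin of tendon and heart matrix, was nearly absent from MI with 7.82, 3.69, 3.31, 0 and 0 CPM, or 18 UMIs in all, against 112, 167, 49.7 and 1992 CPM in IR. The groups of plates did not overlap (log2 -7.61 ± 0.90, edgeR adjusted p = 4.11e-05), IR plate 7 gave most of the IR level (log2 -5.15 without it, and -8.32 without MI plate 1), and without IR plates 4 and 7 the call was lost at log2 -4.24. Spp1, the secreted phosphoprotein osteopontin, rose in MI from 205 CPM ± 184 to 783 CPM ± 331, with IR plate 3 at 0 and overlapping groups, a call lost in 7 of 25 alternatives, among them those without MI plate 1, 3 or 5 or IR plate 4.

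Of 19 matricellular genes tested, 1 rose (Spp1) and 5 fell (Postn, Thbs2, Thbs4, Sparcl1, Ccdc80), with a list median of log2 -0.50 against 0.10 over all genes. The list had 0 higher and 3 lower genes without IR plate 4, and 0 higher and 1 lower without IR plates 4 and 7. Without IR plate 3, Sparcl1 moved from log2 -2.07 to -1.35 and lost its call. Sparc and Fn1, the most abundant of the list, had 11765 and 2495 CPM in MI and 16398 and 3687 CPM in IR and did not pass the test. Cthrc1 had 749.6, 576, 601, 445 and 462 CPM in MI and 1048, 849, 671 and 1069 CPM in IR. Its MI and IR plates overlapped, and the log2 fold change was -0.72 ± 0.25 (edgeR adjusted p = 0.0904).

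Elastic fibre and microfibril genes, which give tissue its recoil, fell in 8 of 19 cases (Fbln1, Fbln5, Mfap4, Emilin2, Ltbp1, Ltbp3, Ltbp4, Dpt) and rose in 1 (Emilin1), with a median of log2 -1.30. Fbln5 had 32.9 CPM ± 10.8 in MI and 292 CPM ± 401 in IR, where plate 3 alone reached 892 (log2 -2.69, and -1.42 without it), and Mfap4 had 127 CPM ± 47.3 and 677 CPM ± 402 (log2 -2.38 ± 0.33, edgeR adjusted p = 0.000224). Fbln1 and Emilin2 fell with overlapping plates (log2 -1.90 and -1.89), and both calls were lost without IR plate 4. Emilin2 was then at log2 -1.06, and its call was also lost at 0.17 when wells were weighted equally, as was that of Fbln5 at -1.93. Fbln2 and Fbn1, the most abundant of the list, had 2418 and 1550.5 CPM in MI and 2515 and 1782 CPM in IR. The list gave 1 higher and 8 lower genes under a stricter gate (under 1% cardiomyocyte and 0.3% macrophage genes) and 3 lower genes without IR plates 4 and 7. Without IR plate 4 alone it had 0 higher and 4 lower, and with wells weighted equally 5 lower with a median of log2 -0.44.

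Small leucine-rich proteoglycans, which bind and space collagen fibrils, split by member. Aspn (asporin) had 159, 136, 67.0, 79.7 and 146 CPM in MI and 1449.6, 1339.8, 597 and 798 CPM in IR. No MI plate came near an IR plate (log2 -3.17 ± 0.32, edgeR adjusted p = 8.68e-06). Prelp and Ogn also fell (log2 -2.74 and -2.31), whereas Bgn (biglycan) had 4649.8 CPM in MI and 4527 CPM in IR with overlapping plates. Sdc4, a cell surface proteoglycan, rose from 32.9 CPM ± 15.8 to 211 CPM ± 27.2 (log2 2.53, and 3.19 without IR plate 4), and of the 18 genes tested 3 rose (also Sdc1 and Srgn) and 3 fell (median log2 -0.07).

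Of 15 other collagens, the collagen VI chains Col6a1, Col6a2 and Col6a3 and the fibril-associated Col14a1 fell and 0 rose, with a median of log2 -0.48. Col6a2 had 517, 561, 445, 744 and 866 CPM in MI and 5843, 1549.6, 795 and 1567 CPM in IR. IR plate 3 was the highest, and the highest MI plate exceeded IR plate 5 (log2 -1.89 ± 0.39, edgeR adjusted p = 0.00825). Col14a1 had 149 CPM ± 23.9 in MI and 529 CPM ± 250.1 in IR without overlap, Col6a3 569 and 1252 CPM, and Col6a1 547 and 1125 CPM. Without IR plates 4 and 7 the calls of all 3 collagen VI chains were lost and 1 of the 15 genes was lower. Col6a2 was then at log2 -2.11, Col6a3 at -0.73 (from -1.17) and Col6a1 at -0.58 (from -1.09). Without IR plate 4 alone 2 were lower, the calls of Col6a3 and Col6a1 being lost. The call of Col6a1 was lost in 8 of 26 alternatives, and Col6a2 moved to log2 -1.19 without IR plate 3. The fibrillar partners Col5a2 and Col5a1 did not pass the test, with 1579 and 1463 CPM in MI and 1832 and 1704 CPM in IR.

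Genes that fold, hydroxylate and cross-link collagen gave 1 call in 25, a share near that of all genes: P4ha3, a prolyl hydroxylase subunit, fell from 159 to 83.6 CPM, a call lost in 9 of 24 alternatives. Serpinh1, the collagen chaperone, had 3074 CPM in MI and 3010.2 CPM in IR, and P4hb had 1456 and 1375 CPM. Of 21 ER folding genes 1 rose, Sec61b of the translocation channel (461 against 259 CPM), a call lost in 12 of 24 alternatives, and Hspa5 and Hsp90b1 had 1709.7 and 1542 CPM in MI and 1248 and 1281 CPM in IR.

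Resting fibroblast genes had the most lower calls of the 23 lists of pathways and functions plotted: 12 of 23 fell (among them Pi16, Scara5, Clec3b, Dpt, Gsn, Cd34, Ly6a, Lpl, Abca8a, Igfbp4, Sparcl1), 0 rose, and the median was log2 -1.64. Pi16 (chromosome 17, 29318796 to 29328903), a peptidase inhibitor that marks a fibroblast pool found in many tissues, had 6.25, 25.8, 9.10, 33.6 and 22.8 CPM in MI and 602, 529, 373 and 58.6 CPM in IR. All MI plates lay below IR plate 7, which was itself far below the other IR plates (log2 -4.34 ± 0.49, edgeR adjusted p = 2.65e-05). Gsn (chromosome 2, 35256359 to 35307902), which severs actin filaments, had 215, 544, 259, 639 and 287 CPM in MI and 5196, 1254, 2461 and 1011 CPM in IR. The groups did not overlap (log2 -2.53 ± 0.40, edgeR adjusted p = 0.000764, and log2 -1.94 without IR plate 3). Scara5 and Clec3b fell (log2 -3.86 and -3.78) but rest on 22 and 33 UMIs in MI and 29 and 40 in IR. Both calls were lost without IR plate 4 (log2 -2.85 and -2.89, edgeR adjusted p = 0.0818 and 0.108), without IR plates 4 and 7 (log2 -3.36 and -3.68), and with wells weighted equally. Lpl, the lipase that frees fatty acids from lipoproteins and that cardiomyocytes also carry, fell by 3.04 with its highest levels on IR plates 4 (1349 CPM) and 7 (2329 CPM), and moved to log2 -2.31 without plate 7. Without both plates Lpl was at log2 -0.50 and its call was lost (edgeR adjusted p = 0.660). Mgp, the most abundant of the list, had 2970.3 CPM ± 1099 in MI and 1832 CPM ± 1874 in IR. The list had 12 lower genes of 23 under the stricter gate and 5 of 23 without IR plates 4 and 7.

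**Figure D3:**
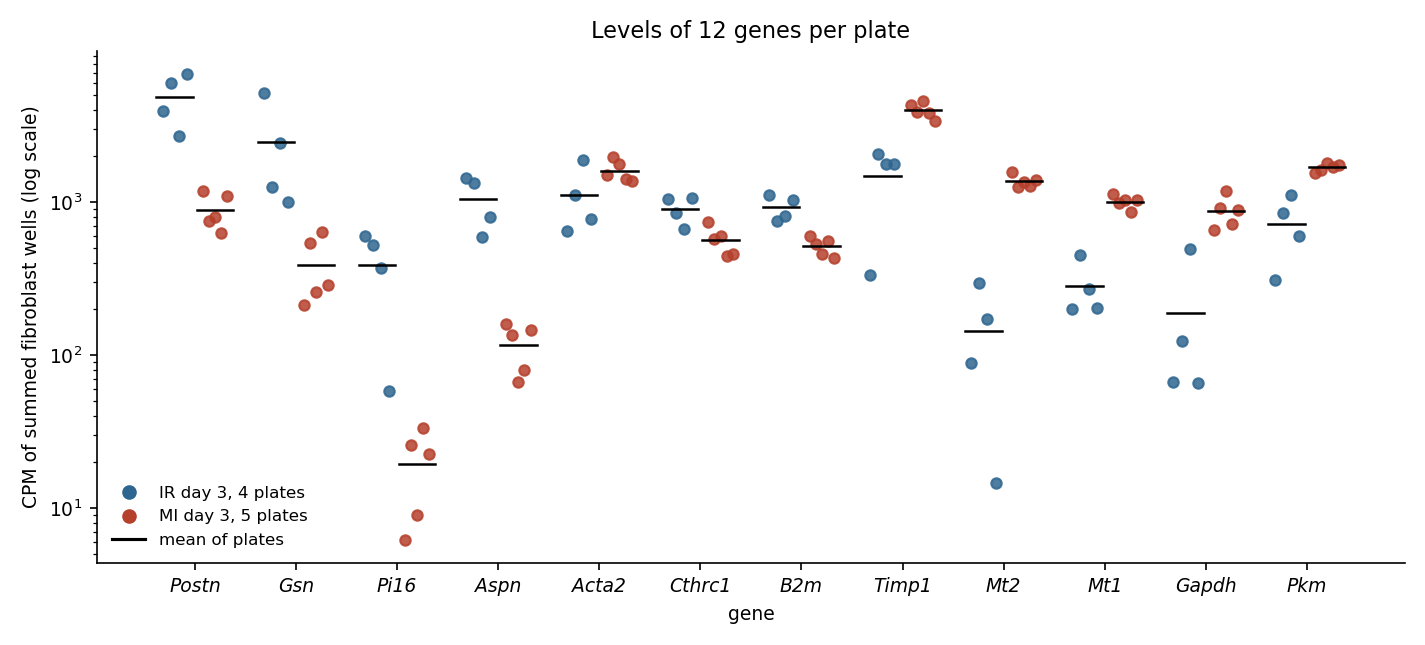
CPM of the summed fibroblast wells (vertical axis, log scale) of 12 genes, 1 point per plate for 4 IR (blue) and 5 MI (red) plates, with the mean as a line. The groups do not overlap for Postn, Gsn, Pi16, Aspn, B2m, Timp1, Mt2, Mt1, Gapdh and Pkm, and overlap for Acta2 and Cthrc1.

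Contractile genes gave 4 higher and 0 lower of 22 (median log2 0.50). Actb, the cytoplasmic actin, had 4826, 6293, 6648, 6097 and 6178 CPM in MI and 2163, 3204, 3604 and 3193 CPM in IR. Every MI plate was above every IR plate (log2 0.97 ± 0.24, edgeR adjusted p = 0.0221). Myh9, Tpm2 and Cald1, a non-muscle myosin and a pair of actin-binding proteins, had 592, 472 and 795 CPM in MI and 254, 235 and 413 CPM in IR, and the calls of Cald1, Tpm2 and Actb were lost in 11 of 26, 9 of 24 and 6 of 26 alternatives. The list had 1 higher gene without MI plate 3, 2 without MI plate 1, 2 or 5 or IR plate 7, and 7 without IR plate 5. Acta2 (chromosome 19, 34240336 to 34255585) had 1506, 1967, 1779, 1432 and 1387 CPM in MI and 647, 1125, 1889 and 784 CPM in IR. IR plate 5, where 1 well held 23450 of the 40230 UMIs, lay among the MI plates. The log2 fold change of 0.58 ± 0.27 did not pass the test (edgeR adjusted p = 0.207). Actg1 had 4192 CPM in MI and 3972 CPM in IR, with IR plate 5 at 6662.

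Because MI wells were deeper, the share of wells with a transcript was also measured after thinning each well to 1000 UMIs, as a set of 5 comparisons. A UMI of Acta2 was found in 81.5%, 64.0%, 62.1%, 65.0% and 69.6% of fibroblast wells on MI plates 1 to 5 and in 26.1%, 43.8%, 40.0% and 47.1% on IR plates 3, 4, 5 and 7. The groups did not overlap, with a difference of 29.2 points (two-sided exact permutation p = 0.0159, the smallest this design can give, adjusted over the 5 comparisons 0.0397). Before thinning the means were 97.0% and 57.4%. In the same plates Acta2 was seen in 18.6% of thinned MI wells with at least 1% macrophage genes (median depth 23968 UMIs) and in 6.10% of such IR wells (median depth 8496). In thinned wells with at least 5% cardiomyocyte genes it was seen in 27.3% of 11 MI wells (median depth 15666) and 18.4% of 185 IR wells (median depth 2676). Thinned to 2000 UMIs, the Acta2 difference was 38.0 points with exact permutation p = 0.0714.

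Postn was found in 66.7%, 56.0%, 31.0%, 30% and 52.2% of thinned wells in MI and in 69.6%, 87.5%, 80.0% and 88.2% in IR. The difference was -34.2 points, again without overlap (exact permutation p = 0.0159, adjusted 0.0397), and the unthinned means were 81.7% and 94.1%. Postn was found in 1.24% of thinned macrophage wells in MI and in 7.93% in IR, and in 12.4% of thinned IR cardiomyocyte wells. Thinned to 2000 UMIs the Postn difference was -16.1 points (exact permutation p = 0.179), and without thinning -12.4 points (exact permutation p = 0.0635), so that neither passed. Cthrc1 was found in a mean of 24.0% ± 4.70 of wells in MI and 29.2% ± 6.52 in IR (difference -5.22 points, exact permutation p = 0.270, adjusted 0.270), against 1.24% and 3.05% of macrophage wells, with unthinned means of 79.3% and 64.2%.

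Gsn was found in 31.3% ± 8.02 of thinned wells in MI and 56.0% ± 26.0 in IR (difference -24.7 points, exact permutation p = 0.0952, adjusted 0.159), and IR plate 3 reached 91.3%. In wells with at least 5% cardiomyocyte genes Gsn was found in 9.09% of 11 MI wells (median depth 15666 UMIs) and 9.19% of 185 IR wells (median depth 2676), and in macrophage wells in 29.8% and 29.3%, which is near the share of MI fibroblast wells. Without thinning the order turned, with 90.8% in MI and 80.7% in IR. A UMI of any of 15 cell cycle genes was found in 52.1% ± 14.6 of thinned wells in MI and 30.7% ± 22.4 in IR (difference 21.4 points, exact permutation p = 0.143, adjusted 0.179), against unthinned means of 95.0% and 52.6%. Thinned macrophage wells held such a UMI in 37.9% and 26.2%. Without IR plate 5, which had 60.0% among 5 wells, the cell cycle difference was 31.2 points with exact permutation p = 0.0357, and without MI plate 2 the Gsn difference was -27.9 points with exact permutation p = 0.0286.

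**Figure D4:**
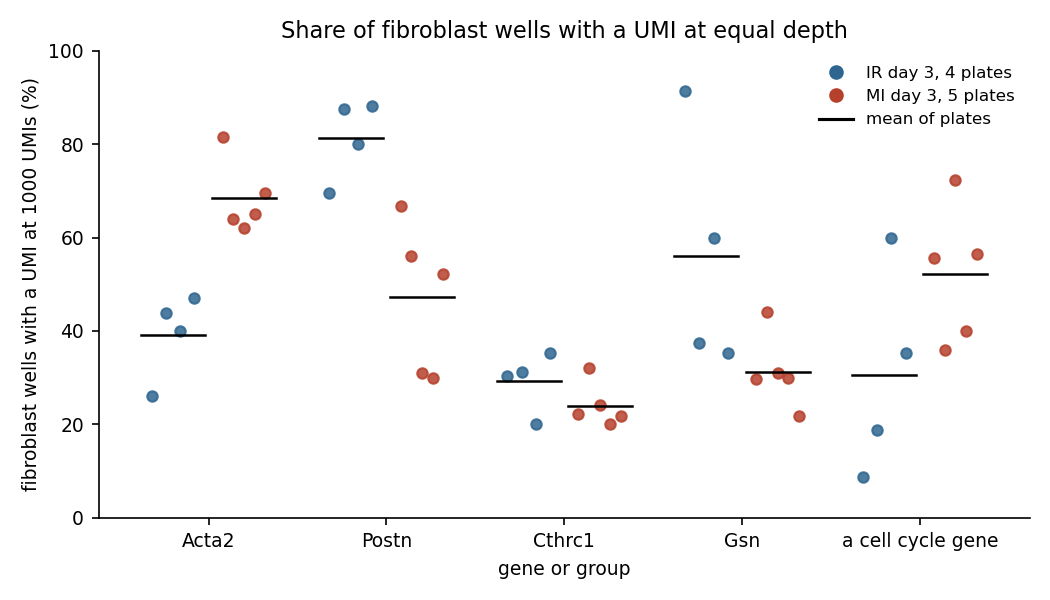
Share of fibroblast wells, in percent, with at least 1 UMI of a gene after thinning to 1000 UMIs, 1 point per plate for 4 IR (blue) and 5 MI (red) plates with the mean as a line. The groups do not overlap for Acta2 and Postn and overlap for Cthrc1, Gsn and the cell cycle genes.

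In the summed counts, 4 of 33 cell cycle genes rose (Pcna, Mcm5, Rrm2, Dut, all used in DNA synthesis), 0 fell, and the list median was log2 0.81. Dut, which keeps uracil out of DNA, had 89.0 CPM ± 17.7 in MI and 20.9 CPM ± 4.56 in IR, and Pcna, the replication clamp, 252 CPM ± 76.3 and 97.7 CPM ± 40.6. Mcm5 and Rrm2 rose by log2 2.05 and 1.99, on 8 and 14 UMIs in IR, and Rrm2 was at 2.68 without IR plate 5. The calls of Rrm2, Pcna and Mcm5 were lost in 10, 8 and 6 of 24 alternatives, and the list had 1 higher gene without MI plate 5, 2 without MI plate 3 or 4 or IR plate 4 or 7, and 7 without IR plate 5. Tubb5 and H2afz, the most abundant of the list, had 1252 and 647 CPM in MI and 653 and 477 CPM in IR and did not pass the test. Without IR plates 4 and 7, 0 of the 33 passed the edgeR test, when 76 of 9032 genes did, and the median was log2 1.54 against 0.39 over all genes.

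Metallothioneins, small proteins that bind zinc and copper and scavenge oxidants, were among the most strongly raised abundant genes. Mt2 (chromosome 8, 94172618 to 94173567) had 1568, 1259.8, 1359, 1277 and 1395 CPM in MI and 89.2, 296, 174 and 14.6 CPM in IR. The MI plates were tightly grouped and far above the IR plates (9.57-fold, log2 3.10 ± 0.44, edgeR adjusted p = 0.000265). Mt1, its neighbour on chromosome 8, had 1135, 984, 1034, 867 and 1043 CPM in MI and 200.7, 453, 273 and 205 CPM in IR (log2 1.72 ± 0.28, edgeR adjusted p = 0.00111). Both calls held in all 26 alternatives, and with 1 plate left out Mt2 ranged from log2 2.68 (without IR plate 7) to 4.42 (without IR plate 4). At 1000 UMIs per well, Mt2 was found in 51.9% to 60.0% of fibroblast wells per MI plate and in at most 20% on any IR plate.

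The list of metallothionein, iron and antioxidant genes had 7 higher (also Hmox1, Slc39a14, Prdx1, Txn1, Txnrd1) and 0 lower of 22, with a median of log2 0.54. Hmox1, the heme-degrading enzyme, had 160.2 CPM ± 46.0 in MI and 32.3 CPM ± 22.2 in IR, and Txnrd1, which reduces thioredoxin, 133 CPM ± 23.7 and 41.9 CPM ± 21.3, a call lost without MI plate 1 or 3 or IR plate 7. The ferritin chains Ftl1 and Fth1 had 1989 and 1758 CPM in MI and 1341 and 1352 CPM in IR and did not pass the test. The list had 7 higher genes under the stricter gate, 4 without MI plate 1, 2 without IR plates 4 and 7, and 3 higher and 1 lower of 9 that could be tested after thinning.

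Because Mt1 and Mt2 moved together, the core of the metal response element, TGCACNC or TGCGCNC, was searched in both directions in their start regions, from 250 bases before to 30 after the RefSeq start (GRCm38.p6). The region of Mt2 (chr8:94172368-94172647, plus strand) is shown with the matches in capitals.
Mt2: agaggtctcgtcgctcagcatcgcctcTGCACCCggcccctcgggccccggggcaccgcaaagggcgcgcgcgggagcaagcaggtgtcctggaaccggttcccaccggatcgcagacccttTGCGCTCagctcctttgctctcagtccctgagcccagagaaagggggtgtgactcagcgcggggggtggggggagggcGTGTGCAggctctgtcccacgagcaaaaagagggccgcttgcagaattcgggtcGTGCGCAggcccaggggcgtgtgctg
Mt2 held 4 matches, 3 of which begin before the start, and Mt1 held 3, of which 1 does. Of 32851 windows of the same length, 24.1% held at least 1 match, 1.73% at least 3 and 0.405% at least 4. Of 19 genes of the list with a window, 4 held a match, and of 5 called ones only Mt1 and Mt2 did. These are matches of letters, and binding was not measured.

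Genes of glycolysis and hypoxia had the most higher calls of the same 23 lists: 9 of 26 rose (Pfkl, Aldoa, Gapdh, Pgk1, Pgam1, Pkm, Ldha, Pfkfb3, Ddit4), 0 fell, and the median was log2 0.81. Gapdh (chromosome 6, 125161852 to 125166467) had 663, 921, 1185, 721 and 885 CPM in MI and 66.9, 124, 497 and 65.9 CPM in IR. The highest IR plate, plate 5, stayed below the lowest MI plate (log2 2.5 ± 0.40, edgeR adjusted p = 0.000812). Processed copies of Gapdh are common in the genome, which leaves the division of its reads uncertain. Pkm, pyruvate kinase, had 1561, 1616, 1804, 1704 and 1765 CPM in MI and 312, 849, 1119 and 600.5 CPM in IR. Ldha, which turns pyruvate into lactate, had 1345, 1328, 1572, 1528 and 1405 CPM in MI and 289.9, 801, 771 and 674 CPM in IR. For both, the groups did not overlap, with log2 fold changes of 1.22 and 1.11, and the call of Ldha was lost in 7 of 26 alternatives. Gapdh was at log2 3.13 without IR plate 5, and without IR plates 4 and 7 its call was lost at log2 1.97 (edgeR adjusted p = 0.0824). The call of Pkm was then lost as well, at a larger log2 of 1.56 (edgeR adjusted p = 0.0692).

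Pfkfb3, Ddit4 and Pfkl, regulators of glycolytic flux and of growth signalling and a phosphofructokinase, rose by log2 2.91, 2.59 and 1.85 on 2, 8 and 9 UMIs in IR. All 8 UMIs of Ddit4 in IR came from plate 4, without which no UMI was left in IR and the fitted log2 fold change, which then depends on the prior count, was 9.26. Pfkl was at log2 3.08 without that plate, and Pfkfb3 was at 3.71 without IR plate 3 and lost its call in 6 of 22 alternatives. Without IR plate 7 the calls of all 3 were lost. The list had 10 higher genes of 26 under the stricter gate, 9 in wells of under 30% mitochondrial UMIs, 3 of 7 testable genes after thinning, 4 of 26 without IR plate 7, and 2 of 26 without IR plates 4 and 7. The start regions of Ldha (chr7:46845554-46845833, plus strand) and Ddit4 (chr10:59951741-59952020, minus strand) are shown with the letters ACGTG, the core of the hypoxia response element, in capitals in either direction.
Ldha: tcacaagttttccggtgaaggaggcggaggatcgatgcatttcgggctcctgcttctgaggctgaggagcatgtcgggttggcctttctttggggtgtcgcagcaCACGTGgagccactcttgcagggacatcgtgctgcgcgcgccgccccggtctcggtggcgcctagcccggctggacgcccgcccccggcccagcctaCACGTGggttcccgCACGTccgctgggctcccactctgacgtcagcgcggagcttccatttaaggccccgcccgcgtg
Ddit4: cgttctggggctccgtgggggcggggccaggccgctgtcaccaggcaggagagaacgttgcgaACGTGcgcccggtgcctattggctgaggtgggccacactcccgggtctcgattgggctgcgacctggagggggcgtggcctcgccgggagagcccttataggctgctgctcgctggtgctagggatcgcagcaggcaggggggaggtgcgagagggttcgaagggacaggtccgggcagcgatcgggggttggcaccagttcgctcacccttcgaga
Ldha held 5 matches, in which CACGTG counts once in each direction, and Ddit4 held 1. The second start region of Ldha held 0. ACGTG was found in 18.5% of the 32851 windows. A match in any of their windows was held by 17 of 25 genes of the list and by 7 of the 9 higher ones, some of which have several windows. The 18.5% counts windows and not genes, and the list was chosen to hold hypoxia genes, so these counts do not test an excess. They are matches of letters, and binding was not measured.

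**Figure D5:**
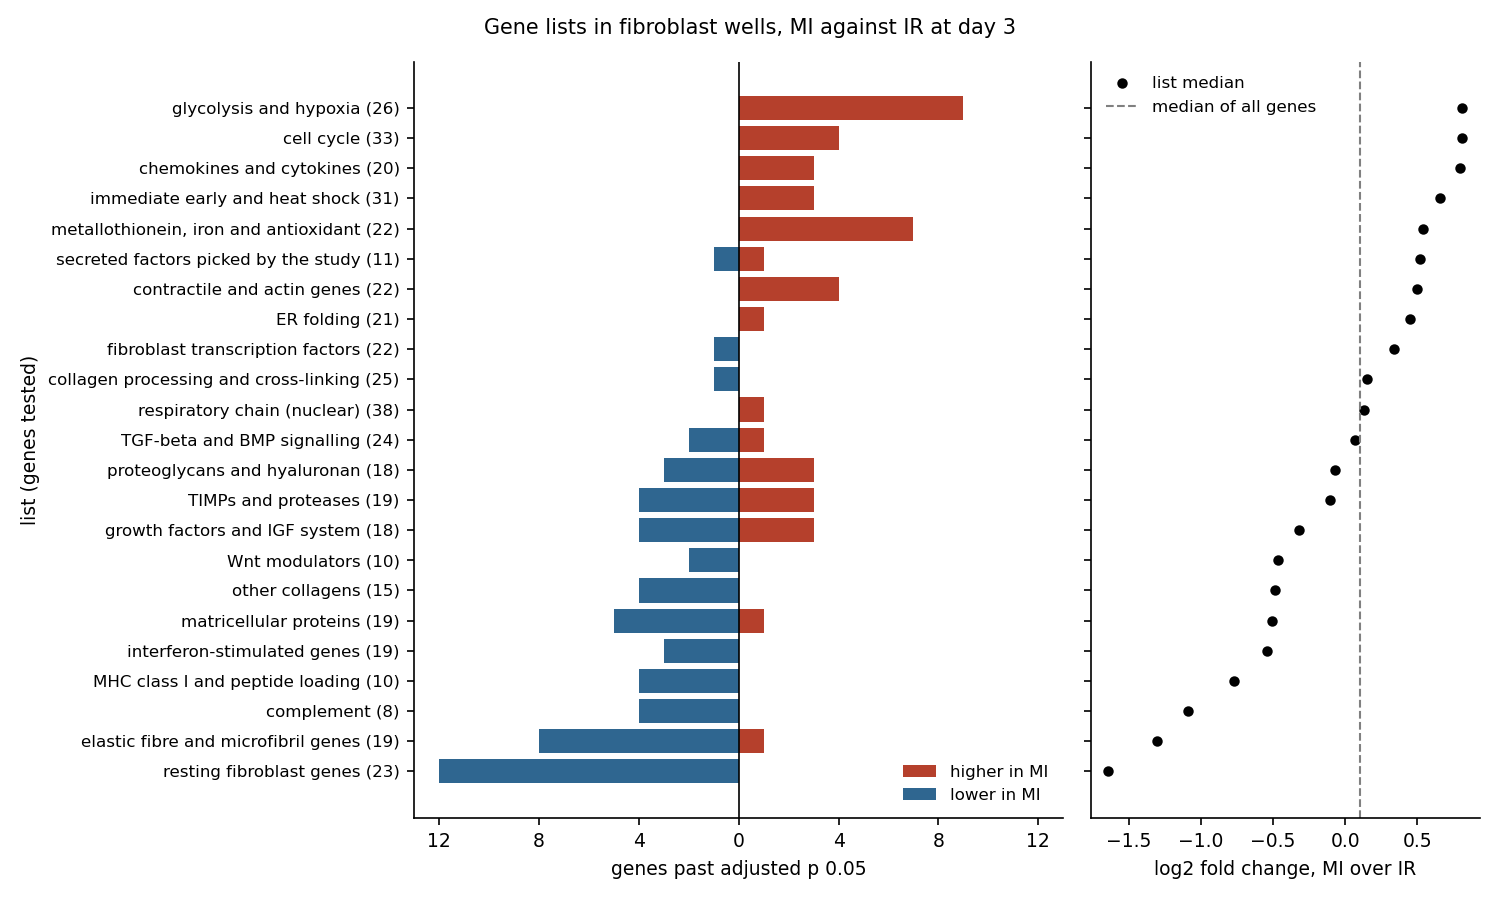
Left, number of genes past adjusted p 0.05 that were higher (red) or lower (blue) in MI in each of 23 lists, with the number tested in brackets. Right, median log2 fold change of each list, with the median of all genes (0.10) as a dashed line. Glycolysis and hypoxia has 9 higher genes and resting fibroblast genes 12 lower.

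Inhibitors of matrix proteases split. Timp1 (chromosome X, 20870166 to 20874737) had 4321, 3905, 4599.8, 3832 and 3388 CPM in MI and 335, 2079, 1789.7 and 1787 CPM in IR. The groups did not overlap (log2 1.34 ± 0.37, edgeR adjusted p = 0.0347), IR plate 3 was the lowest, and the call was lost in 12 of 26 alternatives with the same direction in all. Timp2 had 269, 379, 276, 351 and 295 CPM in MI and 2163, 877, 547 and 498 CPM in IR (log2 -1.62 ± 0.32, edgeR adjusted p = 0.00574). The matrix protease Mmp2 and the protease inhibitor Serpine2 fell (log2 -2.39 and -1.76), and Mmp2 was at -1.61 without IR plate 3, and the call of Serpine2 was lost without IR plate 7. Plaur, the urokinase receptor, rose from 3.02 to 60.1 CPM on 2 UMIs in IR. Of 19 genes 3 rose (also Plat) and 4 fell (also Adamts5), and without MI plate 2, 3 or 4 the list had 1 higher and 3 lower.

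Of the MHC class I and peptide loading genes 4 of 10 fell and 0 rose, with a median of log2 -0.77. B2m (chromosome 2, 122147687 to 122153082), the light chain of MHC class I, had 600.3, 534, 461, 561 and 433 CPM in MI and 1115, 753, 820.3 and 1032 CPM in IR. The groups did not overlap (log2 -0.85 ± 0.22, edgeR adjusted p = 0.0294), and the call was lost in 9 of 26 alternatives. H2-K1, H2-D1 and the peptide loader Tapbp had 207, 257 and 105 CPM in MI and 412, 499 and 210.3 CPM in IR, and the calls of H2-D1 and Tapbp were lost in 10 and 7 of 24 alternatives. Without IR plate 4 or IR plate 7 alone 0 genes of the list passed the edgeR test, when 303 of 8470 and 265 of 8460 genes did. Without MI plate 3, 2 of 8 genes of the list passed. H2-K1 and H2-D1 belong to a family of near-identical genes, so the division of reads among them is uncertain. Without IR plates 4 and 7 the list had 0 genes past the edgeR test, when 76 of 9032 genes passed, and a median of log2 -0.10 against 0.39 over all genes.

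Complement genes, which cardiac fibroblasts secrete, fell in 4 of 8 cases (among them C3, Serping1 and Cd55) with a median of log2 -1.09. C3 had 299.8 CPM ± 162 in MI and 813 CPM ± 448 in IR, and Serping1 428 and 1173 CPM, and Cd55 fell by 2.33 on the log2 scale. Without IR plate 4 Cd55 was at log2 -0.91 and its call was lost (edgeR adjusted p = 0.521). The list had 2 lower genes without MI plate 5 and 1 without IR plates 4 and 7. The call of C3 was lost in 10 of 25 alternatives. Of 19 interferon-stimulated genes Ifi27l2a, Gbp2 and Lgals3bp fell (log2 -1.38, -2.47 and -1.21) and 0 rose, the call of Ifi27l2a being lost in 9 of 24 alternatives. Without IR plate 7 the calls of all 3 were lost, and 0 of 19 passed the edgeR test, when 265 of 8460 genes did. Ifitm3 and Ifitm2 had 909 and 472 CPM in MI and 569 and 302 CPM in IR.

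Of 20 chemokine and cytokine genes 3 rose and 0 fell, with a median of log2 0.79. Ptx3, a secreted pattern recognition protein, had 193, 112, 127, 378 and 149 CPM in MI and 0, 0, 0 and 65.9 CPM in IR. All 9 of its UMIs in IR came from plate 7 (log2 3.07 ± 0.72, edgeR adjusted p = 0.0166), and without IR plate 4 its call was lost at log2 2.27 (edgeR adjusted p = 0.0935). Without IR plate 7 no UMI was left in IR and the fitted log2 fold change, which then depends on the prior count, was 9.997. Mif and the interleukin receptor Il1r1 had 863 and 193 CPM in MI and 266 and 55.9 CPM in IR, and Il1r1 moved from log2 1.41 to 2.10 without IR plate 4 and lost its call in 9 of 24 alternatives. Cxcl1, a chemokine for neutrophils, had 695 CPM ± 196 in MI and 349 CPM ± 365 in IR, where plates ranged from 36.6 to 796, and did not pass. Of 31 immediate early and heat shock genes Cebpb, Socs3 and Hspa8 rose, with 195, 147 and 1833 CPM in MI and 68.1, 46.3 and 1114 CPM in IR, and Hsp90aa1 had 1071 and 772 CPM. The calls of Hspa8 and Socs3 were lost in 16 of 26 and 10 of 24 alternatives, and the list had 1 higher gene without MI plate 2 or 4 or IR plate 7. The chemokine and cytokine list had 1 higher gene without IR plates 4 and 7.

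Growth factor and signalling lists gave calls in both directions. Of 18 growth factor and IGF genes, Angptl4, Igfbp3 and Pdgfrb rose and Igfbp4, Igfbp6, Igfbp7 and Ptn fell. Angptl4, an inhibitor of lipoprotein lipase, had 681, 436, 461, 428 and 308 CPM in MI and 0, 114, 49.7 and 183 CPM in IR. No MI plate overlapped with IR (log2 1.99 ± 0.41, edgeR adjusted p = 0.00816). Igfbp7 and Igfbp4, which bind insulin-like growth factors, had 2216 and 353 CPM in MI and 4931 and 1216 CPM in IR, Igfbp6 and Ptn had log2 -2.23 each, and Igfbp3 rose by log2 2.76 on 4 UMIs in IR, a call lost in 12 of 24 alternatives. Igfbp6 was at log2 -2.83 without MI plate 5, and its call was lost in 5 of 24 alternatives, among them those without MI plate 3, IR plate 3 and IR plate 4 (log2 -1.61, edgeR adjusted p = 0.255). The call of Ptn was lost without IR plate 7, where the list had 1 higher and 3 lower genes, and Igfbp3 at 3.59 without IR plate 3.

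Of 24 genes of TGF-beta and BMP signalling Inhba rose, Tgfbr2 and Fstl1 fell, and the median was log2 0.07, near that of all genes. Inhba, the activin A subunit, had 170.2 CPM ± 91.8 in MI and 30.9 CPM ± 32.4 in IR and lost its call in 13 of 24 alternatives, with log2 2.09, or 3.63 without IR plate 4. Fstl1 had 3935 CPM ± 488 and 7093 CPM ± 360.0 without overlap, Tgfbr2 148 and 269 CPM, and Id3 509 and 428 CPM. The calls of Tgfbr2 and Fstl1 were lost in 11 of 24 and 8 of 26 alternatives. The Wnt antagonists Sfrp1 and Sfrp2 fell, 2 of 10 genes of their list (log2 -1.01 and -2.81), with IR plate 3 at 4639 CPM for Sfrp2. Without that plate the call of Sfrp2 was lost at log2 -1.55, and the call of Sfrp1 was lost in 7 of 26 alternatives.

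Of 22 fibroblast transcription factors only Tbx20 passed, falling from 235 to 109 CPM, a call lost in 12 of 24 alternatives, and Prrx1 and Meox1 had 206 and 157 CPM in MI and 156 and 196 CPM in IR. Zeb2, the factor the study followed in cardiomyocytes, had 124, 133, 143, 103 and 165 CPM in MI and 66.9, 66.8, 149 and 80.5 CPM in IR. IR plate 5, with 6 UMIs, lay among the MI plates (log2 0.65 ± 0.27, edgeR adjusted p = 0.167). Of 11 secreted factors that the study selected, Tmsb10 rose (1798 against 846 CPM, a call lost in 13 of 26 alternatives) and Tapbp fell. Tmsb4x had 1455 CPM ± 282 in MI and 1636 CPM ± 589 in IR, Ptma 1538 CPM ± 241 and 956 CPM ± 528, and Gnb2l1 1726 and 1219 CPM, and none of them passed. Copies of Tmsb4x, Tmsb10, Ptma and Gnb2l1 elsewhere in the genome could share their reads.

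The genes with the largest changes included many of cardiomyocytes. The genes that chose the wells are left out of this ranking, as are genes whose plates overlapped or whose mean was under 50 CPM. Of the 12 lower genes with the largest fold, Ttn, Ryr2, Casq2, Mybpc3, Pln, Cox6a2 and Fabp3 encode proteins of the sarcomere, calcium stores and energy supply of cardiomyocytes. Ttn had 2.35, 4.61, 3.31, 0 and 5.06 CPM in MI and 156, 1721, 323 and 4525 CPM in IR. IR plates 4 and 7, the plates with the most cardiomyocyte markers, were the highest (log2 -9.19 ± 0.88, edgeR adjusted p = 5.70e-06). Ttn remained lower at log2 -8.23 under the stricter gate and at -5.87 without both plates. Of the 8 cardiomyocyte markers that had no part in choosing the wells, 5 of 6 tested were lower (Ttn, Ryr2, Pln, Atp2a2, Cox6a2). Myh6, which helped to choose them and is given as a description, had 3.03 CPM ± 0.910 in MI and 687 CPM ± 718 in IR. Without IR plate 7, Ttn, Ryr2, Casq2, Pln and Cox6a2 were at log2 -8.05, -6.62, -6.22, -5.27 and -4.51, against -9.19, -8.01, -6.86, -5.89 and -5.43 with it. Without MI plate 2, Ryr2 and Fabp3 were at log2 -8.84 and -5.21, the latter against -4.48. Without IR plates 4 and 7 the calls of Cox6a2 and Fabp3 were lost (log2 -3.24 and -2.53). The other lower genes of this group were Thbs4, Pi16, Pamr1, Tmem100 and Pcsk6. Pamr1, a secreted protease-like protein, had 3.50 CPM ± 2.66 in MI and 165 CPM ± 163 in IR, Tmem100 7.36 and 130.1 CPM (log2 -4.32, and -3.31 without IR plate 4), and Pcsk6, a proprotein convertase, 42.2 CPM ± 10.8 and 383 CPM ± 263.

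Under the same limits, the 12 higher genes with the largest fold were Hs6st2, Mt2, Ptx3, Erdr1, Ddit4, Sdc4, Gapdh, Rdh10, Alyref, Nolc1, Mir5109 and Dut. Hs6st2, a heparan sulfate sulfotransferase, had 113, 74.8, 98.5, 79.7 and 69.6 CPM in MI and 0, 4.77, 0 and 14.6 CPM in IR. Its 3 UMIs in IR leave the fold uncertain (log2 3.53 ± 0.55, edgeR adjusted p = 0.000642, and 4.60 without IR plate 7). Erdr1 had 569.8 CPM ± 179 in MI and 92.8 CPM ± 72.0 in IR, Nolc1, a nucleolar protein, 126 CPM ± 20.2 and 28.8 CPM ± 15.1, Alyref, an mRNA export factor, 96.8 and 24.7 CPM, and Rdh10, a retinol dehydrogenase, 94.3 and 13.4 CPM. Without IR plate 4, Alyref moved from log2 2.44 to 1.81 and lost its call (edgeR adjusted p = 0.0503), and Rdh10 moved from 2.48 to 4.33. The call of Rdh10 was lost without IR plate 7. Counts at the locus named Mir5109 were 5741 CPM ± 3644 and 1181 CPM ± 676.

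Ribosomal protein genes made up 11.5% to 12.4% of UMIs on MI plates and 4.72%, 6.92%, 10.7% and 5.41% on IR plates 3, 4, 5 and 7. Of 77 tested, 36 were higher and 0 lower in MI, with a median of log2 0.88. Of 38 nuclear respiratory chain genes Cox7a2 rose (171 against 63.4 CPM), and Atp5b and Atp5a1 had 864 and 589.6 CPM in MI and 810.0 and 613 CPM in IR. Ribosomal RNA counted as Rn45s took 1.14% to 3.66% of UMIs in MI and 1.51% to 11.4% in IR, and leaving it and the gate genes out of the totals gave 260 higher and 282 lower genes.

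Fibroblast wells of the other groups were few and are given as pooled levels without a test: 20 wells at day 1 and 10 at day 14 after sham surgery, 18 at day 1 and 18 at day 14 of IR. Pooled Postn was 91.1 and 2442 CPM after sham surgery (days 1 and 14), 2504, 5758 and 3385 CPM after IR (days 1, 3 and 14) and 912 CPM in the MI wells. Pooled Gsn was 26734, 13318, 4989, 1699, 13477 and 367 CPM in the same order, lowest in MI. Pooled Mt2 was 613, 104, 2349, 174, 55.9 and 1384 CPM, and pooled Timp1 was 108, 271, 3982, 1778, 509 and 4085 CPM. For both genes the day 3 MI wells lay nearer to the IR wells of day 1 than to those of day 3. Pooled Acta2 was 331, 0, 529, 1039, 12.4 and 1640 CPM, where the 0 is of 47905 UMIs, and Pi16 was 480.4, 3695, 239, 373, 1596 and 17.5 CPM.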

How the data were processed

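Single cells were sorted into 384-well plates and sequenced by SORT-seq. The deposited tables, 36 of which were read, hold the UMI counts of 20720 nuclear genes per well as the authors made them, not normalized. Reads were aligned with BWA to GRCm38/mm10 per the labels. The study's methods name BWA-ALN and the removal of mitochondrial counts before clustering. The version, the annotation and the filters of the deposited counts are not given in the sources used here. UMIs of 6 bases allow 4096 sequences, which was the highest deposited count.

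Mitochondrial and spike-in rows were left out, fibroblast wells were chosen as described and summed per plate, and genes kept by filterByExpr were tested with edgeR 4.0.16 in R 4.3.3 (TMM, glmQLFit, glmQLFTest, Benjamini-Hochberg over 8098 genes, threshold 0.05). CPM used totals before TMM. The SE of a log2 fold change was taken as its absolute value divided by the square root of the quasi-likelihood F, so it is approximate where a group holds few UMIs. Shares were compared with exact two-sided permutation tests over plates (scipy 1.17.1). DESeq2 1.42.0, limma 3.58.1 and the other alternatives are given in the closing text. The edgeR, DESeq2 and limma steps were tested on simulated data. Cell doublets were not called. Plates were compared for wells deposited in common: at most 1 well matched between any 2 plates, over 72 ordered pairs. No 2 plates of a group agreed within sampling noise.

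Members and gene lists were chosen with earlier results of these data known. Named genes were, from each list, up to 4 past the threshold with the largest fold and the 2 most abundant, and over all genes the 12 higher and 12 lower with the largest fold whose plates did not overlap and whose mean was at least 50 CPM. The genes that chose the wells, ribosomal RNA and symbols of the Gm and Rik forms were left out of the latter. Other genes named as counted members of a list carry no values unless given. Some genes are not reported here. Gene positions and start regions are from RefSeq on GRCm38.p6.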

Additional observations from a re-analysis of the deposited data

Results flagged for a closer look

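In 20 of 264 groups of 4 or 5 plates tested, the highest or lowest plate stood apart from the others by more than Dixon's 95% critical value, and chance gives about 1 in 20. The values in brackets are the level on that plate and its gap to the nearest plate as a share of the range of the group. IR plate 3 stood apart for Sparcl1 (1294 CPM, 0.944), Fbln5 (892 CPM, 0.936), Col6a2 (5843 CPM, 0.847), Mgp (4617 CPM, 0.847), Timp1 (335 CPM, 0.833), Sfrp2 (4639 CPM, 0.89) and Cox7a2 (22.3 CPM, 0.897). IR plate 4 stood apart for Ddit4 (38.1 CPM, 1). IR plate 5 stood apart for Myh9 (547 CPM, 0.978), Actg1 (6662 CPM, 0.927), Rrm2 (149 CPM, 0.975), Gapdh (497 CPM, 0.865) and Zeb2 (149 CPM, 0.833). IR plate 7 stood apart for Thbs4 (1992 CPM, 0.94), Ptx3 (65.9 CPM, 1) and Igfbp6 (29.3 CPM, 0.87). In MI, plate 1 stood apart for Col5a2 (1936 CPM, 0.864), plate 2 stood apart for Clec3b (17.5 CPM, 0.744) and plate 3 for Gbp2 (4.14 CPM, 0.795). The share of fibroblast wells on IR plate 3 (42.6%) stood apart with a gap of 0.735 of the range. The causes were not tested.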

How the results depend on the processing

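The count of 540 genes past the threshold became 1167 without a filter on low counts, 865 with at least 10 wells per plate, 851 with fibroblast genes at 1% or more of UMIs, 150 at 4% or more, 99 after thinning wells to 1000 UMIs, and 265 to 865 when 1 plate was left out. Chosen after seeing the data, it was 355 in wells under 30% mitochondrial UMIs, 80 under the stricter gate with thinning, and 76 without IR plates 4 and 7. Thinning left 345 genes to test, and 289 with the stricter gate. The cause of the other shifts was not tested. RLE scaling (561), DESeq2 (777), all groups in the fit (512), wells of at least 2000 UMIs (760), equal well weights (623), the stricter gate alone (398), totals without the gate genes and Rn45s (542) and the saturation correction (549) stayed within 1.5 times. Of the genes called both here and under an alternative, 0 had the opposite sign, which says little because the alternatives reuse the same plates. Among all genes called here that gave a value, 535 of 540 kept their sign with equal well weights and 522 of 534 without IR plates 4 and 7. It was kept by 529 of 530 under the stricter gate, 423 of 424 at 4% fibroblast genes and 522 of 523 under 30% mitochondrial UMIs, and by all in the other alternatives. The share of higher calls was 62.6% in wells of at least 2000 UMIs, 60.9% at 1% fibroblast genes and 77.5% with equal well weights. It was 32.7% at 4% fibroblast genes, 35.4% after thinning, 33.8% with the stricter gate as well, and 36.2% to 39.5% without any 1 of the MI plates, against 48.3%.

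The difference in the share of fibroblast wells was 10.2 points in wells of at least 2000 UMIs (exact permutation p = 0.0357) and -0.542 to 8.94 with 1 plate left out. With fibroblast genes at 1% or more it was 14.5 points (exact permutation p = 0.0952), and at 4% or more -6.25 (exact permutation p = 0.437). For shares with a UMI, thinning to 2000 UMIs gave 38.0 points for Acta2 (exact permutation p = 0.0714) and -16.1 for Postn (p = 0.179), and no thinning gave -12.4 for Postn (p = 0.0635), 15.1 for Cthrc1, 10.1 for Gsn and 42.4 for cell cycle genes (p = 0.0159). Plates of at least 10 wells gave 31.2 points for cell cycle genes (exact permutation p = 0.0357). Leaving out 1 plate gave 24.8 to 31.8 points for Acta2, -39.0 to -29.9 for Postn, -8.31 to -3.21 for Cthrc1, -31.7 to -13.0 for Gsn and 14.1 to 31.2 for cell cycle genes.

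Of the named genes past the threshold, Emilin2 alone turned in direction under any alternative. The log2 fold changes that turned in sign, all others of genes not past the threshold in the comparison as reported, were found without IR plates 4 and 7 (Sparc 0.044, Fn1 0.15, Fbln2 1.22, Fbn1 0.24, Col5a2 0.38, Col5a1 0.23, Serpinh1 0.62, Meox1 0.47, Tmsb4x 0.36, Atp5a1 0.31), with wells weighted equally (limma-trend on log2(CPM + 10)) (Emilin2 0.17, Fbln2 0.045, P4hb -0.024, Hsp90b1 -0.010, Tmsb4x 0.46, Atp5b -0.17), with RLE scaling (Bgn -0.038), in DESeq2 (Bgn -0.039, Atp5b -0.0042), with at least 10 wells per plate (Bgn -0.10), after thinning to 1000 UMIs (Bgn -0.49, P4hb -0.32, Hspa5 -0.26, Hsp90b1 -0.25, Mgp -0.10, Fth1 -0.18, Tmsb4x 0.024, Atp5b -0.86), with fibroblast genes at 4% or more (Bgn -0.010, Actg1 -0.0083, Id3 -0.043, Tmsb4x 0.16), under the stricter gate after thinning (Bgn -0.42, P4hb -0.15, Hspa5 -0.10, Actg1 -0.016, Mgp -0.062, Fth1 -0.037, Atp5b -0.20), without a filter on low counts (Serpinh1 0.16, Atp5a1 0.080), with counts corrected for UMI saturation (Serpinh1 0.0068), in wells under 30% mitochondrial UMIs (Serpinh1 0.028, Atp5a1 0.10) and under the stricter gate (Atp5a1 0.083). With 1 plate left out, the ranges of genes whose sign turned were Fbln2 from -0.43 to 0.16, Fbn1 from -0.34 to 0.19, Col5a1 from -0.39 to 0.027, Serpinh1 from -0.15 to 0.24, Bgn from -0.10 to 0.29, Meox1 from -0.96 to 0.00054, Tmsb4x from -0.44 to 0.050, Atp5a1 from -0.19 to 0.060, P4hb from -0.024 to 0.18, Atp5b from -0.0074 to 0.18. Of these, Atp5b passed the threshold as lower after thinning to 1000 UMIs (edgeR adjusted p = 0.0357). The causes were not tested.

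The replicate numbers of MI and IR were also used as a replicate block. The deviations of same-numbered plates correlated at -0.128, 0.00251 and -0.0382 for numbers 3, 4 and 5, so the plates share only a number. With the block, 184 genes passed (37.5% higher), 141 of them also called without it, 11 of 33 cell cycle genes were higher, and the signs that turned were Fbln2 0.51, Bgn -0.00083, Serpinh1 0.24, Tmsb4x 0.095, Atp5a1 0.083.

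Depth limits the IR values: the summed IR plates hold 40230 to 209736 UMIs, and IR plate 5 rests on 5 wells. Plates that share a mouse could not be modelled, and MI cannot be told apart from its library set. Intervals cover counting error only.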
